A study of Drosophila melanogaster with 32 samples.

Results

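The glutathione transferase genes of Drosophila melanogaster were followed across mated females of 8 laboratory populations. A gene was taken as a member where an array probe set was annotated to 1 gene whose symbol starts with Gst and a capital letter, and this gave 36 probe sets for 34 genes, out of 13647 probe sets for 11982 genes in all. By the class letter of the symbol there were 11 genes of class GstD (delta), 13 of GstE (epsilon), 3 of GstO (omega), 1 of GstS (sigma), 4 of GstT (theta) and 2 of GstZ (zeta). GstE9 and GstO2 had 2 probe sets each, and GstE8 was not analysed here because no probe set matched it alone.

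All flies descended from the LHM laboratory stock. Females came from 4 monogamous populations, in which a fly mated once in each generation, or from 4 promiscuous populations, which stayed on the mating routine that is standard for the stock. After 46 generations, females of each population were mated to males of their own population or to males of the population with the same number in the other regime. This gave 4 groups, namely monogamous females with monogamous-line males, monogamous females with promiscuous-line males, promiscuous females with monogamous-line males, and promiscuous females with promiscuous-line males. Each group held 4 crosses and 8 arrays, and each cross had 2 arrays, 1 in each of 2 batches, which the series describes as biological replicates. RNA of whole adult females, killed by freezing at 6 h after mating, was hybridised to 32 arrays. A population shares its history and founders among its 4 arrays, so the population was the replicate for any comparison of regimes, and the same-numbered populations of both regimes were crossed to the same 2 male populations. The age of the flies and the number pooled for an RNA sample were not given in the sources used here.

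Glutathione transferases join the tripeptide glutathione to reactive or foreign molecules, which makes these more soluble and prepares them for export, and several of them also reduce lipid peroxides. In insects the delta and epsilon classes are expanded in tandem gene clusters and are known for breakdown of insecticides and plant toxins, while the omega, theta and zeta classes are shared with other animals. Many of the genes are active in the midgut, the Malpighian tubules and the fat body, and part of the family is switched on by the stress-responsive factor encoded by cnc, which Keap1 restrains. Whole females hold all of these organs together with the ovary, so in these arrays fewer cells of a type and less RNA per cell cannot be told apart.

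All values are RMA expression on the log2 scale, where 1 unit is a doubling, and differences are monogamous minus promiscuous. Levels were not compared between probe sets, because probes differ in how strongly they bind. By their mean over all arrays, only GstD6, at 3.64, and the second probe set of GstE9 (1633238_at), at 3.36, lay below 4.54, the 40th percentile of the mean signals of the 18769 tested probe sets, and are called dim, so their values may hold mainly background signal. The arrays were alike as deposited, with medians of 5.39 to 5.49 and correlations between arrays of 0.992 to 0.998. The labelled tissue was checked against marker genes. The yolk protein genes Yp1, Yp2 and Yp3 averaged 14.73, 14.54 and 14.48, while 4 of 5 testis markers and 3 of 5 male accessory gland markers were dim.

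The members differed widely between populations of the same regime. A limma F-test asked whether the 4 monogamous or the 4 promiscuous populations differed among themselves by more than the arrays within a population, with batch and the males' regime in the model and Benjamini-Hochberg adjustment over all tested probe sets. Of the 36 members, 30 passed at an adjusted p under 0.05, and 17.6% of all tested probe sets did. By class these were 9 of 11 GstD, 13 of 14 GstE, 3 of 4 GstO, the single GstS, 3 of 4 GstT and 1 of 2 GstZ probe sets. The 6 that did not pass were GstD6, GstD11, GstE4, GstO2 (1627845_at), GstT4 and GstZ2. Dim probe sets made up 7508 of all tested ones but only 2 of the members. With the dimmest 40% left out, 30 of 34 members passed, against 30.9% of the probe sets that were left. The distance between the highest and the lowest of the 8 population means had a median of 0.52 over the members and 0.21 over all tested probe sets, and it exceeded 1 in 7 members and in 2.45% of all probe sets. That F-test speaks of populations and not of the regime, since its replicates are the arrays of a population.

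**Figure D1:**
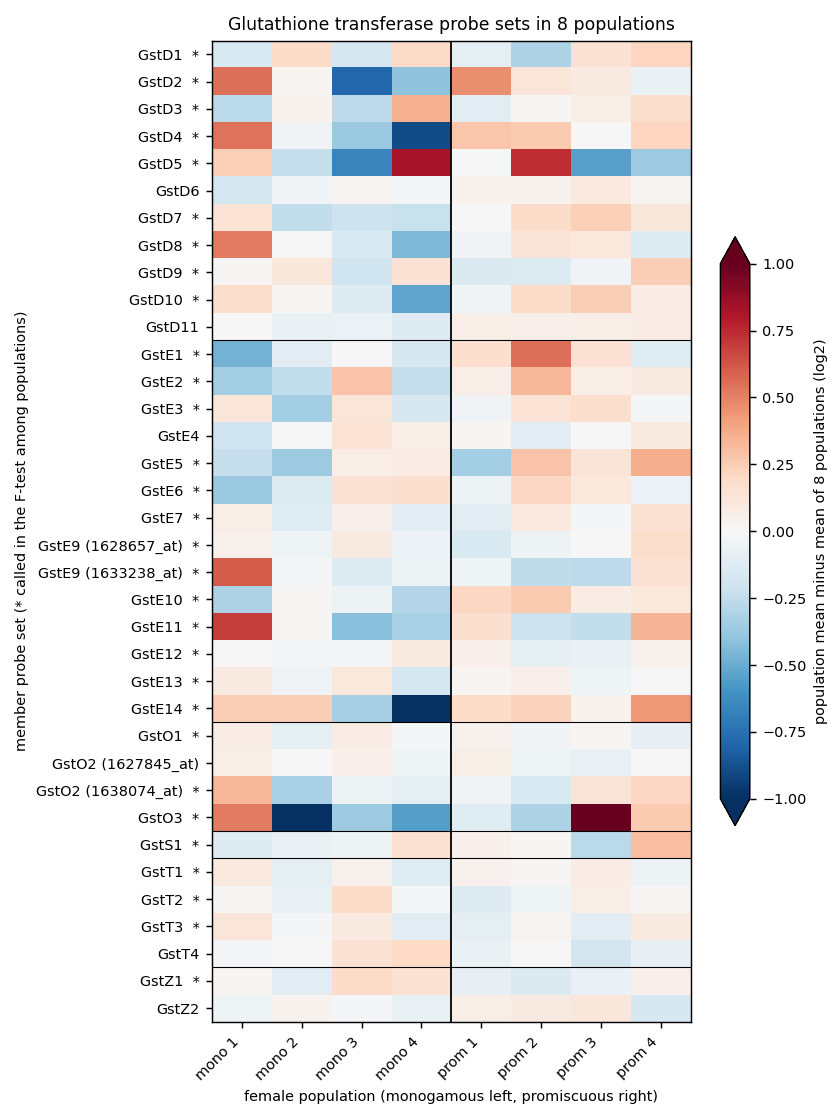
Each row is 1 of the 36 member probe sets, in class order from GstD at the top to GstZ at the bottom, and each column is 1 of the 8 female populations, monogamous on the left and promiscuous on the right. Colour gives the population mean minus the mean of all 8 populations on the log2 scale, and a star marks the 30 members that passed the F-test among populations; the darkest cells are GstO3 and GstE14 and several GstD genes.

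GstE14, known as Noppera-bo, is an epsilon enzyme that is needed for ecdysteroid synthesis, and it had the smallest p of the members. Its population means were 6.38, 6.38, 5.80 and 5.09 in monogamous populations 1 to 4, against 6.32, 6.36, 6.17 and 6.57 in promiscuous populations 1 to 4. Monogamous 4 stood alone at the low end, with none of its 4 arrays above 5.15, and monogamous 3 was next, with arrays between 5.72 and 5.98. Neither overlapped with any other population, while monogamous 1 and 2 lay among the promiscuous ones. The F statistic was 81.3 on 6 degrees of freedom (limma adjusted p = 7.41e-13). Without monogamous 4 it was 23.0 (limma adjusted p = 1.52e-06).

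GstO3, an omega enzyme next to the eye pigment gene se on arm 3L, had the widest spread of the family. Its population means were 9.90, 8.30, 9.01 and 8.82 in monogamous populations 1 to 4, against 9.25, 9.07, 11.03 and 9.64 in promiscuous populations 1 to 4. The 4 arrays of promiscuous 3 lay between 10.55 and 11.37, above every other array, and the 4 of monogamous 2 lay between 8.08 and 8.41, below every other array. The distance between these populations was 2.73, a 6.63-fold difference in signal (F = 71.3, limma adjusted p = 2.51e-12). Without promiscuous 3 the F statistic was 44.6 (limma adjusted p = 6.17e-09). Within promiscuous 3 the level was 11.20 in batch 2 and 10.85 in batch 1, so both batches showed it.

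GstD1, the abundant delta enzyme that can break down DDT and responds to oxidative stress, fell into a higher and a lower set of populations in both regimes. Its population means were 13.20, 13.54, 13.18 and 13.54 in monogamous populations 1 to 4, against 13.25, 13.04, 13.50 and 13.56 in promiscuous populations 1 to 4. Monogamous 2 and 4 and promiscuous 3 and 4 were the high populations, and the lowest of their arrays stood at 13.44. The highest array of the other populations stood at 13.39, so the 2 sets did not overlap. The whole distance was 0.52 (F = 38.9, limma adjusted p = 8.99e-10), and without promiscuous 2 the F statistic was 25.4 (limma adjusted p = 5.45e-07).

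GstD5, a delta gene of the same cluster, had population means of 5.48, 4.999, 4.58 and 6.07 in monogamous populations 1 to 4, against 5.25, 5.98, 4.70 and 4.87 in promiscuous populations 1 to 4. The highest and the lowest of the 8 were both monogamous, 1.49 apart (F = 29.6, limma adjusted p = 1.36e-08). With 1 population left out the F statistic was between 20.1 without promiscuous 2 (limma adjusted p = 3.6e-06) and 45.2 without monogamous 1 (limma adjusted p = 4.68e-09). Its arrays scattered more within a population than those of GstE14, with a residual SD of 0.24 against 0.09 for GstE14. Monogamous 4 and promiscuous 2 overlapped with each other and reached 6.37 and 6.16.

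**Figure D2:**
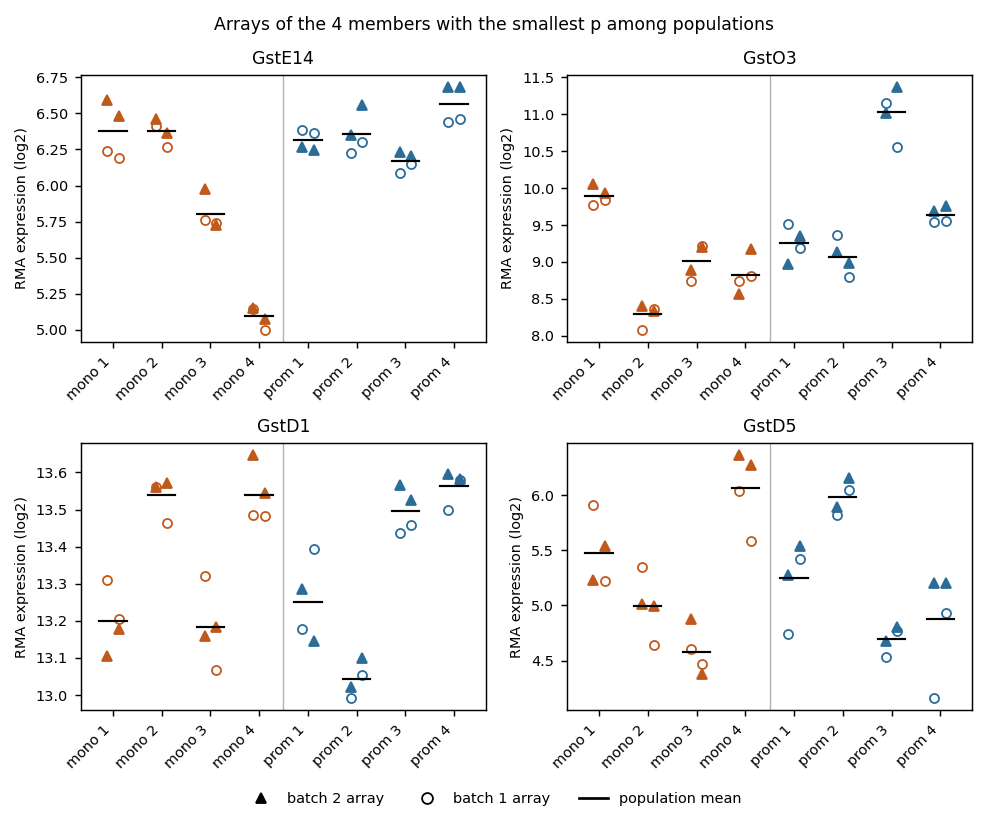
Single arrays (RMA expression, log2 axis) of GstE14, GstO3, GstD1 and GstD5 in the 4 monogamous populations (left of each panel) and the 4 promiscuous populations (right), with filled triangles for batch 2, open circles for batch 1 and a bar for the population mean of 4 arrays. Monogamous 4 lies apart in GstE14, with no array above 5.15, and promiscuous 3 lies apart in GstO3 at 10.55 to 11.37.

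The GstD genes lie side by side on arm 3R in the order GstD10, GstD9, GstD1 and then GstD2 to GstD8, with GstD11 1 gene further on, by the gene order of the RefSeq table. Neighbours did not share one order of populations. Monogamous 1 had the highest mean of GstD2, GstD4 and GstD8. Monogamous 4 had the lowest mean of GstD4, GstD8, GstD10 and GstD11 and the highest of GstD3 and GstD5. GstD3 means were 9.30, 9.61, 9.31 and 9.93 in monogamous populations 1 to 4, against 9.47, 9.58, 9.63 and 9.75 in promiscuous populations 1 to 4, and passed (limma adjusted p = 5.43e-06). GstD8 means were 6.77, 6.25, 6.10 and 5.80 in the monogamous populations, against 6.21, 6.38, 6.35 and 6.11 in the promiscuous ones (limma adjusted p = 2.48e-05). The 2 genes thus put monogamous 4 at opposite ends. GstD4 means were 5.85, 5.28, 4.94 and 4.41 in monogamous populations 1 to 4, against 5.58, 5.57, 5.32 and 5.52 in promiscuous populations 1 to 4 (limma adjusted p among populations 1.01e-07). The mean in monogamous 4 lies below 4.54, the level under which a probe set is called dim, and may hold mainly background signal. GstD2 means were 7.33, 6.81, 5.99 and 6.38 in the monogamous populations, against 7.24, 6.90, 6.87 and 6.71 in the promiscuous ones (limma adjusted p = 8.87e-06). The SD over the 4 populations was 0.60 in the monogamous and 0.12 in the promiscuous ones for GstD4, and 0.58 and 0.22 for GstD2. GstD6, which was dim, and GstD11 had distances of 0.27 and 0.20 between their extreme populations. Delta genes are close in sequence and their probes may also bind neighbouring transcripts, which was not tested.

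Most GstE genes also form a cluster, on arm 2R, in the order GstE10, GstE1 to GstE7, GstE8 and GstE9, while GstE11 to GstE14 lie elsewhere on 2R. GstE1, whose enzyme is known to conjugate products of lipid peroxidation, had means of 10.73, 11.09, 11.21 and 11.04 in monogamous populations 1 to 4, against 11.38, 11.76, 11.35 and 11.08 in promiscuous populations 1 to 4. Monogamous 1 was its lowest and promiscuous 2 its highest population in either batch, and the distance was 1.02. Monogamous 1 was also the lowest population for GstE2, GstE4, GstE6 and GstE10. GstE6 means were 11.39, 11.62, 11.90 and 11.91 in monogamous populations 1 to 4, against 11.71, 11.96, 11.86 and 11.70 in promiscuous populations 1 to 4 (limma adjusted p = 1.48e-06). GstE5, next to it, had means of 8.49, 8.36, 8.79 and 8.80 in the monogamous populations, against 8.38, 9.01, 8.85 and 9.09 in the promiscuous ones (limma adjusted p = 8.07e-06). Its low populations were thus monogamous 1 and 2 and promiscuous 1, where GstE6 had monogamous 1 alone at the low end. For GstE11, outside the cluster, monogamous 1 was instead the highest, at 9.38, and the range of the population means was 1.11 (limma adjusted p = 6.02e-08). GstE7, GstE12 and GstE13 varied little, with distances of 0.27, 0.18 and 0.28, and still passed the F-test. The 2 probe sets of GstE9 disagreed, since 1628657_at had its highest mean in promiscuous 4, at 11.65, and the dim 1633238_at in monogamous 1, at 3.96.

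Among the other classes GstO1 spanned 0.17 and GstO2 (1638074_at) spanned 0.66, with means of 8.57, 7.91, 8.18 and 8.13 in monogamous populations 1 to 4, against 8.20, 8.08, 8.36 and 8.44 in promiscuous populations 1 to 4. The other GstO2 probe set, 1627845_at, spanned 0.14 and did not pass, so the 2 probe sets of that gene disagreed too. GstS1, the single sigma enzyme, which acts on lipid peroxidation products, ranged from 11.11 in promiscuous 3 to 11.68 in promiscuous 4 (limma adjusted p = 5.15e-05). The 4 theta genes spanned 0.22 to 0.38 and the 2 zeta genes, whose class breaks down tyrosine products, spanned 0.28 and 0.34. The median distance was 0.63 for GstD, 0.57 for GstE, 0.41 for GstO, 0.27 for GstT and 0.31 for GstZ.

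The larger population deviations mostly had the same sign in both batches, which hold different arrays of the same populations. Of 288 population deviations, 225 had the same sign in batch 2 and batch 1, and so did 63 of the 64 that passed 0.3 in either batch. These signs were not counted over all tested probe sets, so the agreement cannot be called particular to the family. The highest population was the same in both batches for 15 of 36 members and for 22.8% of all tested probe sets. The highest and the lowest were both the same for 10 members, namely GstD2, GstD4, GstD8, GstE1, GstE10, GstE14, GstO2 (1638074_at), GstO3, GstT2 and GstT4, and for 6.56% of all probe sets. Tested within 1 batch, 17 members passed in batch 2, against 6.54% of all probe sets, and 18 in batch 1, against 7.11%. In both batches 14 passed, against 4.05% of all probe sets. GstE14, GstO3, GstD1 and GstD5 were among the 14.

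**Figure D3:**
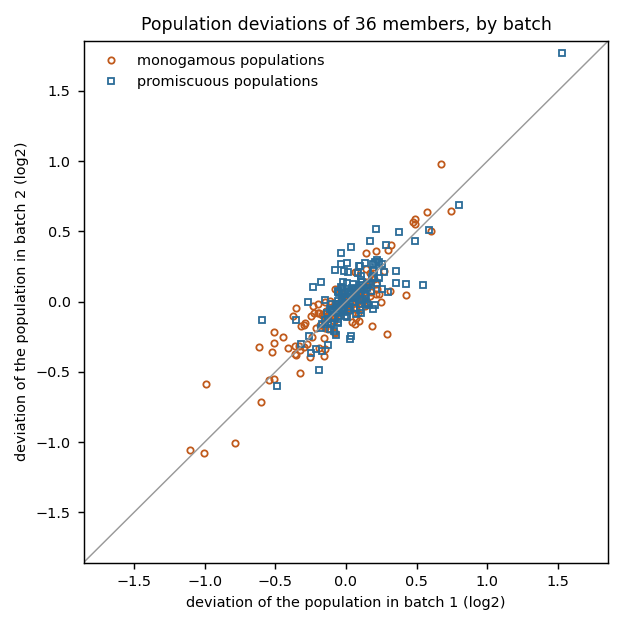
Each point is 1 member in 1 population, with its deviation from the mean of the 8 populations in batch 1 on the x axis and in batch 2 on the y axis, both on the log2 scale; circles are monogamous and squares promiscuous populations, and the line marks equal values. The points follow the line, and 63 of the 64 points beyond 0.3 have the same sign in both batches.

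With any 1 population left out, 27 to 30 members passed, against 14.8% to 16.9% of all probe sets. Monogamous 1 had the highest mean of 10 members, against 10.1% of all probe sets, and the lowest of 7, against 11.5%. Monogamous 2 had the highest mean of no member, against 12.7% of all probe sets, and the lowest of 7, against 17.9%. Promiscuous 4 had the highest mean of 8 members, against 8.66% of all probe sets, and the lowest of 1, against 12.1%. The lowest mean lay in a monogamous population for 25 members and in a promiscuous one for 11, and over all probe sets it lay in a monogamous one for 55.7%. The highest was divided 18 and 18, and over all probe sets it lay in a monogamous one for 50.8%. The SD over the 4 populations of a regime was larger in the monogamous ones for 25 of 36 members and for 55.5% of all tested probe sets. Its median over members was 0.17 in the monogamous and 0.12 in the promiscuous populations, against 0.068 and 0.062 over all probe sets. This split of the SD was looked at after the values were seen and was not tested.

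Markers of organs that carry much transferase also differed between populations. The 5 midgut markers all passed the F-test, with a maltase gene, Mal-A1, spanning 1.495 and a protease gene, Jon99Ci, spanning 1.15. Their summed signal per array ran from 46282 to 57455 in monogamous females and from 46366 to 55444 in promiscuous females. Of 2 tubule markers Irk3 passed, spanning 1.26 with its lowest mean in monogamous 3, and Best2 did not. All 3 flight muscle markers passed, as did 1 of 3 yolk genes and none of 6 ovary probe sets (1 at an unadjusted p under 0.05). None of the midgut or tubule markers was dim, and the part of tissue content in the spread of the transferases was not tested.

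The next comparison asked whether females of the monogamous regime differed from those of the promiscuous one whatever their mate, with the 4 arrays of each population averaged. In limma no member passed after adjustment, and 0% of all tested probe sets did. At an unadjusted p under 0.05 there were 5 members, against 7.11% of all probe sets. Of the 36 members 24 were lower in monogamous females, with a median difference of -0.05, against -0.004 over all probe sets, of which 47.1% were higher. The lower ones included 8 of 11 GstD and 11 of 14 GstE probe sets, whose median differences were -0.10 and -0.08, while 3 of 4 GstT probe sets were higher.

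GstE10, at one end of the epsilon cluster, had the smallest p. Its population means were 8.44, 8.76, 8.70 and 8.46 in the monogamous populations, against 8.95, 9.01, 8.82 and 8.85 in the promiscuous ones, and the 2 sets did not overlap. They averaged 8.59 ± 0.16 in monogamous and 8.91 ± 0.09 in promiscuous populations (SD, n = 4 each), a difference of -0.32 with an SE of 0.08 (limma adjusted p = 0.554). The difference was -0.34 in batch 2 and -0.30 in batch 1. With arrays as samples and the population as a random block it passed, at a limma adjusted p of 0.00504, as did 0.757% of all probe sets. That fit took 1 correlation between arrays of a population, 0.14, for every probe set. GstE10 itself had an SD of 0.13 between populations of a regime and 0.11 between arrays of a population. Its arrays were thus treated as more independent than these SDs show, and that p-value may be too small. GstD11 also had all monogamous means below all promiscuous ones, at 5.21, 5.14, 5.15 and 5.08 in the monogamous populations, against 5.28, 5.26, 5.26 and 5.28 in the promiscuous ones, a difference of -0.12 with an SE of 0.04 (limma adjusted p = 0.602). That difference is smaller than the residual SD of single arrays within a population, 0.16, though each population mean held 4 arrays. The SD between populations of a regime was 0.04. Among all tested probe sets 2.48% had every monogamous mean below every promiscuous one and 1.60% the reverse, which no member showed.

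GstD7 had means of 7.16, 6.79, 6.82 and 6.80 in the monogamous populations, against 7.04, 7.21, 7.27 and 7.14 in the promiscuous ones, a difference of -0.27 with an SE of 0.09 (limma adjusted p = 0.603). Monogamous 1 lay among the promiscuous populations. GstT4, a theta gene on the X chromosome, had means of 10.42, 10.44, 10.58 and 10.63 in the monogamous populations, against 10.37, 10.43, 10.25 and 10.35 in the promiscuous ones, a difference of 0.17 with an SE of 0.06 (limma adjusted p = 0.603). Its 2 sets overlapped at monogamous 1 and promiscuous 2. The other member with an unadjusted p under 0.05 was GstE1, at -0.37. The 3 members that spread most between populations differed by -0.74 with an SE of 0.45 (GstO3), by 0.08 with an SE of 0.35 (GstD5) and by -0.44 with an SE of 0.26 (GstE14).

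**Figure D4:**
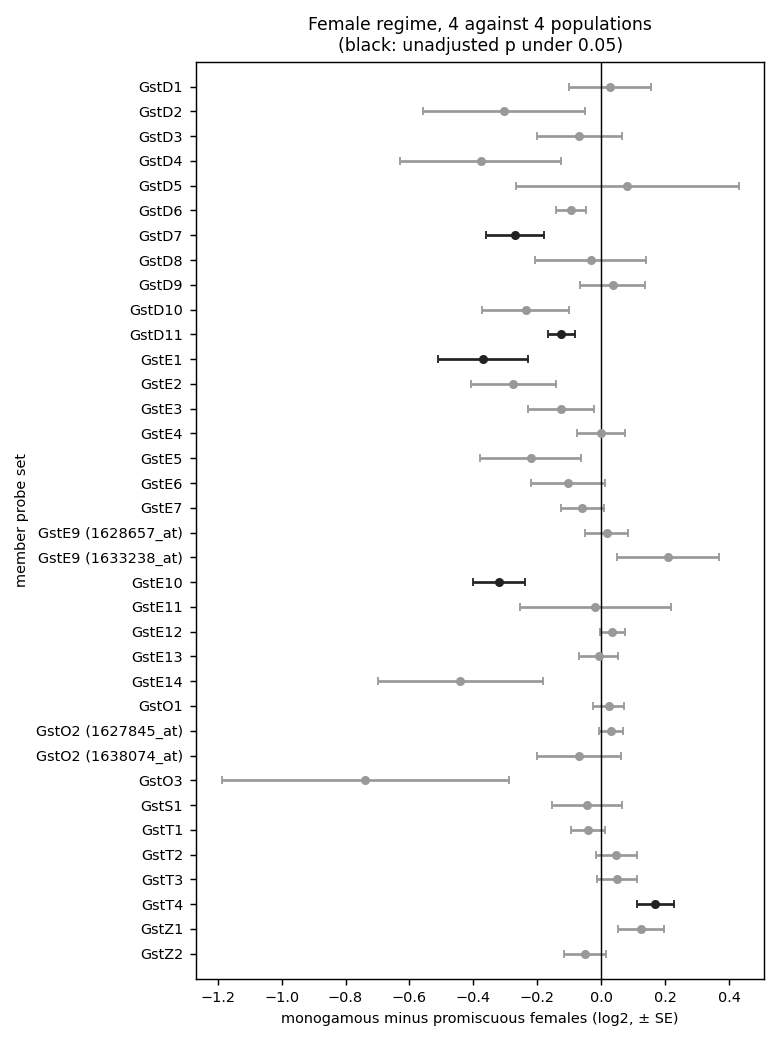
Difference between the 4 monogamous and the 4 promiscuous population means (monogamous minus promiscuous, log2, with SE bars) for each of the 36 member probe sets in class order; black points have an unadjusted limma p under 0.05 and none passed after adjustment. GstO3 has the largest difference, -0.74, and also the widest bar.

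The arrays of the 4 combinations of female and male regime overlapped for GstO3, GstD5 and GstE14, the 3 genes whose population means spread most. GstO3 averaged 8.91 ± 0.71 in monogamous females with monogamous-line males, 9.11 ± 0.63 in monogamous females with promiscuous-line males, 9.80 ± 0.88 in promiscuous females with monogamous-line males and 9.69 ± 0.90 in promiscuous females with promiscuous-line males (SD, n = 4 crosses each). In the same order GstD5 averaged 5.42 ± 0.62, 5.14 ± 0.66, 5.04 ± 0.57 and 5.36 ± 0.57, and GstE14 averaged 5.97 ± 0.61, 5.86 ± 0.61, 6.34 ± 0.17 and 6.37 ± 0.17. These SDs hold the differences between populations, and both kinds of mate were given to the same populations, so the effect of the mate was tested within populations.

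The males' regime was tested as a response, the mean of the 2 arrays with monogamous-line males minus the mean of the 2 arrays with promiscuous-line males in each female population. Same-numbered female populations of both regimes had the same 2 male populations, so the 8 responses rest on 4 pairs of male populations. The fit took them as 8 separate values. If shared males made responses alike, its p-values for the mean response may be too small. Averaged over all 8 female populations, no member passed in limma and 0% of all probe sets did. At an unadjusted p under 0.05 there were 7 members, 6 of them higher with monogamous-line males, against 11.0% of all probe sets. The median response was 0.01 over the members and 0.002 over all probe sets. Of the epsilon probe sets 11 of 14 were higher with monogamous-line males, and of the omega ones 0 of 4, against 51.3% of all probe sets. The median responses of these classes were small, 0.03 for epsilon and -0.006 for omega.

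GstE5 had the smallest p. Its responses were 0.07, 0.37, 0.16 and 0.15 in monogamous populations 1 to 4, against 0.20, 0.10, 0.17 and 0.05 in promiscuous populations 1 to 4. All 8 were above 0. The 8 responses lay on 1 side of 0 for 1.77% of all probe sets and for no other member. The mean was 0.16 with an SE of 0.03 (limma adjusted p = 0.255). It was 0.20 in batch 2, where all 8 responses were above 0, and 0.12 in batch 1, where 5 were. In monogamous females the level averaged 8.70 ± 0.20 with monogamous-line and 8.52 ± 0.26 with promiscuous-line males. In promiscuous females it averaged 8.89 ± 0.29 with monogamous-line and 8.77 ± 0.34 with promiscuous-line males (SD, n = 4 crosses each). The midgut markers stood higher with monogamous-line males in 5 of 5 cases, with a median response of 0.07 and 4 of 5 at an unadjusted p under 0.05. Of the 6 ovary probe sets 0 were higher, with a median response of -0.08 and 3 at an unadjusted p under 0.05. Within monogamous females the median response was 0.03 for midgut and -0.02 for ovary, with 0 and 1 at an unadjusted p under 0.05. Within promiscuous females the medians were 0.10 and -0.13, with 4 of each at that level. The GstE5 response was instead the larger in monogamous females, at 0.19 against 0.13 in promiscuous females. The part of tissue content in the GstE5 response was not tested.

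The other responses were small or uneven. GstD8 had a mean response of 0.13 with an SE of 0.04 (limma adjusted p = 0.368), higher in 6 of 8 populations, and it was 0.02 in batch 2 and 0.24 in batch 1. GstE9 (1628657_at) had one of 0.06 with an SE of 0.02, higher in 7 of 8 (limma adjusted p = 0.386). GstD3 was lower with monogamous-line males in 7 of 8 populations, at -0.06 with an SE of 0.03 (limma adjusted p = 0.431), but stood at 0.01 in batch 2. GstE3, GstS1 and GstD10 also had an unadjusted p under 0.05.

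Within monogamous females no member passed and 0% of all probe sets did, with 7 members at an unadjusted p under 0.05 against 8.46% of all. Within promiscuous females no member passed against 0.00533% of all, with 7 members at an unadjusted p under 0.05 against 10.2%. GstE5 was higher with monogamous-line males in both, by 0.19 in monogamous and 0.13 in promiscuous females. In monogamous females the response of GstD8 was 0.20. GstO3 had responses of 0.02, -0.10, -0.39 and -0.33 in monogamous populations 1 to 4, against -0.02, 0.36, 0.12 and -0.04 in promiscuous populations 1 to 4. Its mean response was -0.20 with an SE of 0.07 in monogamous females (limma adjusted p = 0.473) and 0.11 in promiscuous females. GstE14 had responses of 0.08, 0.12, 0.13 and 0.11 in monogamous populations 1 to 4, against 0.02, -0.14, -0.02 and -0.01 in promiscuous populations 1 to 4. All 4 were above 0 in monogamous females, with a mean of 0.11 and an SE of 0.05 (limma adjusted p = 0.576), and 1 of 4 was in promiscuous females, where the mean was -0.04 (limma adjusted p = 0.833). The 2 female regimes differed by 0.15 with an SE of 0.07 (limma adjusted p = 0.632). In promiscuous females the response of GstE9 (1628657_at) was 0.09 and that of GstE11 was 0.18. For GstD5 the response was 0.28 in monogamous and -0.32 in promiscuous females.

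The difference between the responses of monogamous and promiscuous females is also the contrast of own-population mates with mates of the other regime, since each female had only these 2 kinds of mate. No member passed, with 0.00533% of all probe sets passing, and 7 members had an unadjusted p under 0.05, against 7.89% of all. GstD5 had the smallest p. With monogamous-line males its level was 5.57, 5.18, 4.74 and 6.201 in monogamous populations 1 to 4 and 5.01, 5.86, 4.61 and 4.68 in promiscuous populations 1 to 4. With promiscuous-line males it was 5.38, 4.82, 4.42 and 5.93 in the monogamous and 5.48, 6.11, 4.79 and 5.07 in the promiscuous populations. Every population thus had the higher level with its own males.

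The GstD5 responses were 0.19, 0.36, 0.32 and 0.27 in the monogamous populations, against -0.47, -0.25, -0.18 and -0.38 in the promiscuous ones. They did not overlap, and such a complete division by sign was found in 1.14% of all probe sets. The mean responses of the 2 female regimes differed by 0.60 with an SE of 0.09 (limma adjusted p = 0.0831). The difference was 0.24 in batch 2 and 0.97 in batch 1. In batch 2 monogamous 1 had a response of -0.31 and promiscuous 4 one of about 0, so the division was not complete there. With arrays centred on their medians the difference was 0.62 and passed (limma adjusted p = 0.0493), as did 0.0107% of all probe sets. With arrays as samples no member had an unadjusted p under 0.05, against 5.02% of all. That fit took 1 correlation between arrays of a population, 0.14, for every probe set. GstD5 had an SD of 0.61 between populations of a regime and 0.24 between arrays of a population. Its p-value for this contrast within populations may thus be too large in that fit.

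**Figure D5:**
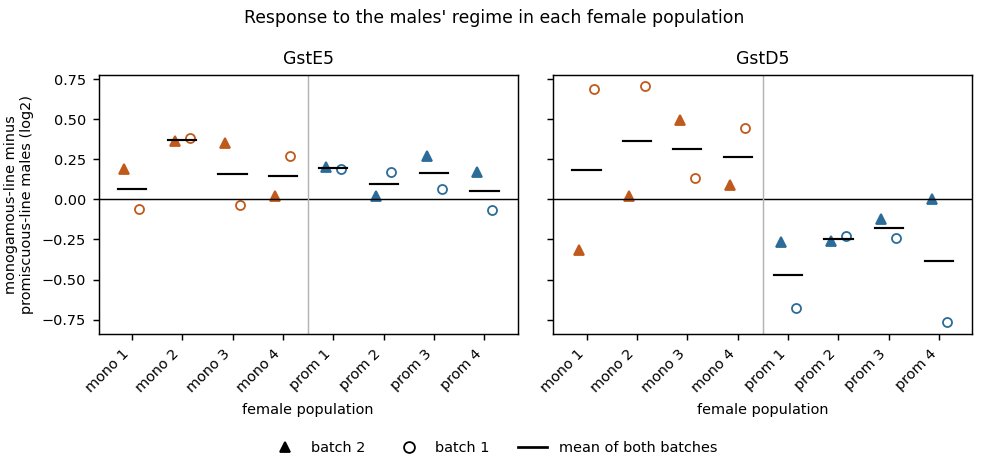
Response to the males' regime (monogamous-line minus promiscuous-line males, log2) of GstE5 and GstD5 in the 4 monogamous (left of each panel) and 4 promiscuous female populations (right), with filled triangles for batch 2, open circles for batch 1 and a bar for their mean. The bars of GstE5 lie above 0 in all 8 populations, and those of GstD5 lie above 0 in the monogamous and below 0 in the promiscuous populations, with a wider scatter between batches.

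GstE4 was the other member with responses of opposite sign, at 0.06, 0.08, 0.03 and 0.10 in monogamous populations 1 to 4 against -0.03, -0.21, -0.23 and -0.10 in promiscuous populations 1 to 4. Its difference was 0.21 with an SE of 0.08 (limma adjusted p = 0.583). GstE11 differed by -0.29 with an SE of 0.09 and GstO3 by -0.31 with an SE of 0.10 (limma adjusted p = 0.534 and 0.538), the response being lower in monogamous females for both. GstD1 differed by 0.09 with an SE of 0.03 (limma adjusted p = 0.548), from responses of 0.02, 0.04, 0.11 and 0.05 in the monogamous populations against -0.04, -0.07, 0.01 and -0.03 in the promiscuous ones.

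Batches were compared within the 16 crosses, as the batch 2 array minus the batch 1 array, and every cross had 1 array per batch, so the effect of the batch and that of the replicate cannot be told apart. Of the 36 members 7 passed, against 20.2% of all probe sets, and 12 had an unadjusted p under 0.05, against 33.2% of all. Of the 7, 6 rose in batch 2. GstT4 fell in batch 2, by 0.15 on average with an SE of 0.03, and was lower in 13 of 16 crosses (limma adjusted p = 0.00389). GstD2 was higher in batch 2 by 0.31 with an SE of 0.08, in 14 of 16 crosses (limma adjusted p = 0.00617), at 6.93 ± 0.38 in batch 2 and 6.62 ± 0.55 in batch 1 (SD, n = 16 arrays each). GstT1 differed by 0.09 and GstE12 by 0.07, both higher in batch 2 in 14 of 16 crosses (limma adjusted p = 0.00789 and 0.0104). GstO2 (1638074_at), GstO1 and GstE14 were the others. Over all members 28 were higher in batch 2, with a median of 0.03, against 47.5% of all probe sets and a median of -0.005. Each population had 2 arrays in each batch, so these differences are balanced in the comparisons of regimes.

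Other genes of glutathione use and oxidative defence were taken from a list of 24, of which 19 had a probe set annotated to them alone, 22 probe sets in all. The rest, Gss1, Gss2, Sod1, Prx2 and Prx5, were not analysed here. Among populations 9 of the 22 passed the F-test, against 17.6% of all tested probe sets, with a median distance of 0.23 against 0.21. These were the small Maf partner of cnc, maf-S; the thioredoxin reductase gene Trxr1; Cat and Sod2, which remove hydrogen peroxide and superoxide; the glutathione peroxidase gene PHGPx; Mgstl, a microsomal transferase; the sepia gene se; Gdap1; and the exporter gene Mrp4, whose probe set was dim. Mgstl (1631058_s_at) had the widest distance of them, 0.60, with its lowest mean in monogamous 2 and its highest in promiscuous 4. The other Mgstl probe set, 1627643_at, did not pass (limma adjusted p = 0.143). The probe sets of cnc and Keap1, and of Gclc and Gclm, which encode the 2 subunits of the enzyme that starts glutathione synthesis, did not pass, and their population means spanned 0.13 to 0.17. For cnc the probe set 1636746_at was dim, at 2.93, and 1633379_s_at was not.

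The gene se is itself of the omega class and lies between GstO3 and GstO2, but is no member by its symbol. Its population means spanned 0.41, with the lowest in monogamous 3 and the highest in promiscuous 1 (limma adjusted p = 0.0453), whereas GstO3 next to it had its extremes in monogamous 2 and promiscuous 3. For the female regime and for the response to males no gene of the list passed. At an unadjusted p under 0.05 for the female regime were MRP, an exporter of conjugates, at 0.13, gfzf (1625757_at), at 0.13, and PHGPx, at -0.09. The share over all tested probe sets was 7.11%. The other gfzf probe set, 1640913_at, differed by only 0.009. For the batch difference 7 of 22 passed, against 20.2% of all tested probe sets.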

How the data were processed

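Whole-fly RNA of mated females was measured on 32 arrays of the Affymetrix Drosophila 2 type, as their file names give it, per the labels. The authors deposited log2 values that were made with RMA in the package affy (submitters' processing notes; versions not given in the sources used here). That method brings arrays to one distribution, so a shift common to most genes is not visible, and it pulls weak signals together. Array counts and populations limit precision. The table held 18952 probe sets; 183 controls were left out and 18769 tested, of which 13647 had 1 gene in the platform annotation of 2016, 402 several and 4720 none. A RefSeq table (Release 6 plus ISO1 MT) served only for current names and gene order, and all 34 genes matched it. No sequence is shown.

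Fits used limma 3.58.1 in R 4.3.3 (lmFit, eBayes with trend, two-sided, threshold 0.05 after Benjamini-Hochberg over all tested probe sets). By chance 938 probe sets would have an unadjusted p under 0.05. Female regime used 8 population means, male regime 8 responses, populations an F-test over 32 arrays, and batch 16 within-cross differences. For each fit the 4 members with the smallest p are given in full, the others by counts and ranges. The further members whose population means are printed were picked after their values were seen. Members, lists and tests were chosen with earlier results of these data known. The fits were tested on simulated data. Alternatives were no trend, quantile normalization, median centring, no dim probe sets, single batches, the replicate block, arrays as samples and each population left out.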

Additional observations from a re-analysis of the deposited data

Results flagged for a closer look

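In groups of 4 populations, 8 of 144 groups had 1 value far from the other 3 by Dixon's criterion, and chance alone gives about 1 in 20. Among population means, GstD7 was 7.16 in monogamous 1, where the other monogamous populations lay at 6.79 to 6.82, and GstE9 (1633238_at), a dim probe set, was 3.96 there against 3.23 to 3.34. GstE2 was 6.64 in promiscuous 2 against 6.37 to 6.39 in the other promiscuous populations, and GstD6, also dim, was 3.74 in promiscuous 3 against 3.67 in the others.

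Among responses to the males' regime, GstE6 was -0.027 in monogamous 1, where the other monogamous populations lay at 0.05 to 0.06. GstE9 (1628657_at) was 0.22 in promiscuous 3 against 0.03 to 0.06, GstD7 was -0.14 in promiscuous 4 against 0.11 to 0.16, and GstT2 was -0.10 in promiscuous 4 against 0.02 to 0.05.

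The response to the males' regime had one sign in every monogamous and the other in every promiscuous population for GstD5, where it differed by 0.60 (limma adjusted p = 0.0831), and for GstE4, where it differed by 0.21 (limma adjusted p = 0.583). Neither passed after adjustment, and 1.14% of all tested probe sets had such a division by sign.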

How the results depend on the processing

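Shares in brackets are those of all tested probe sets under the same fit. Differences among populations passed for 30 members (17.6%), and for 27 to 30 with 1 population left out (14.8% to 16.9%). They passed for 30 of 34 members without the dimmest 40% of probe sets (30.9%). In batch 2 alone 17 passed (6.54%), and in batch 1 alone 18 did (7.11%). For the female regime 5 members had an unadjusted p under 0.05 (7.11%), 4 to 9 with 1 population left out (5.54% to 8.65%; 9 without monogamous 1, 8.65%) and 11 with arrays as samples (10.2%), where 1, GstE10, passed after adjustment (0.757%). For the mean response to males the count was 7 (11.0%), with 3 to 7 when a population was left out (8.16% to 11.9%; 3 without promiscuous 3, 4 without monogamous 1, 3 or 4), 2 without the intensity trend (10.5%), 3 in batch 2 alone (4.92%) and 1 with arrays as samples (8.19%). Within monogamous females it was 7 (8.46%), with 3 to 7 (6.37% to 9.20%; 3 without monogamous 3) and 2 in batch 2 alone (5.88%). Within promiscuous females it was 7 (10.2%), with 3 to 8 (5.72% to 10.4%; 3 without promiscuous 3) and 2 in batch 2 alone (3.05%). For the difference between the female regimes it was 7 (7.89%), with 6 to 8 (5.70% to 9.38%), 1 in batch 2 alone (3.36%) and 0 with arrays as samples (5.02%), and median centring let 1, GstD5, pass after adjustment (0.0107%). The cause of these shifts was not tested. The fit with arrays as samples took 1 correlation between arrays of a population for every probe set. For the female regime its p-values may be too small for members whose populations differ more. For the responses to males and their difference, which lie within populations, its p-values may be too large for such members. In batch 2 alone the response of GstD3 was 0.0062 and the difference of GstD1 between female regimes was -0.031, each of opposite sign to the full data. Over 16 alternatives GstD5 differed by 0.24 to 0.97 (limma adjusted p 0.0493 to 1.00). With the population number as a replicate block, 5 members had an unadjusted p under 0.05 for the female regime (7.55%) and 8 for the mean response to males (10.6%), and none passed after adjustment; over all tested probe sets 13 passed for that response with the block and 0 without it. Deviations of same-numbered populations correlated across probe sets at 0.13, 0.07, 0.19 and 0.02, all above 0. Those of their responses correlated at 0.17, 0.03, -0.04 and 0.01. By level 6 of 8 populations correlated best with their own number, and by response 2 of 8 did. Same-numbered populations shared their 2 male populations by design. Whether the numbers pair them in any other way was not tested, and the main fits did not include the number. The batch difference passed for 7 members (20.2%) and for 5 to 9 with 1 population left out (15.2% to 19.0%). Of the values of single named members, 412 kept their direction and side of the threshold, 2 passed only under an alternative (GstE10 and GstD5, above) and 2 had the opposite sign. The 4 populations of a regime and the weak signal of dim probe sets limit what can be detected.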
